A study of Homo sapiens with 12 samples.

Results

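Nucleoporins, the proteins that build the nuclear pore, and the receptors that carry cargo through it were followed on Affymetrix arrays of HK-2 cells exposed to CdCl. The genes were taken by symbol from the probe annotation: those starting with NUP and a number, with KPNA, KPNB or XPO, with IPO and a number, and AAAS, each read on its brightest probe set, judged by the average of 12 arrays. The array held 49 such genes on 126 probe sets, of 19775 genes in all. HK-2 cells descend from human proximal tubule epithelium and were immortalised, here 1 line with no separate donors, and the study looked for toxicity signatures of 9 compounds. Cells near confluence, in medium with insulin, transferrin, hydrocortisone, selenite and a growth factor (EGF), received CdCl (dose not given in the sources used here) or the control vehicle for 12 h or 48 h. Each of the 4 groups (vehicle or CdCl, at either time) had 3 biological replicates, 1 array each. Values are log2 signals, so a difference of 1 is a 2-fold change.

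Genes with a log2 signal above 4 on 3 or more arrays were tested: 43 of the 49, and 10683 of all genes. The 6 others were NUP210L (a testis relative of NUP210), IPO11, the pseudogene NUP210P1 and the non-coding IPO9-AS1, NUP133-DT and NUP50-DT. The first 5 of these stayed between group means of 2.16 and 2.97, while NUP50-DT read 3.30 to 3.54 in control 12 h, 3.24 to 3.54 in CdCl 12 h, 3.55 to 3.68 in control 48 h and 3.64 to 4.17 in CdCl 48 h arrays. The tested genes include IPO5P1, a transcribed pseudogene of IPO5 whose probes may share sequence with IPO5 transcripts, and NUP62CL, which encodes a protein like the C-terminal part of NUP62.

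Replicates correlated at 0.9965 to 0.9982 over all probe sets but the controls, and arrays of different groups at 0.9731 to 0.989. All 5 epithelial markers checked (KRT8, KRT18, KRT19, EPCAM, CDH1) had group means of 6.80 to 13.10. Of 9 renal and proximal tubule markers PAX8, CDH16, CDH6 and MME passed 4 on some array (MME only with group means of 3.61 to 4.21), while PAX2, GGT1, ANPEP, LRP2 and CUBN stayed under 4, so the brush border markers of the labelled cell type were mostly not seen. As group means, CDH16 went from 7.83 (control) to 6.71 (CdCl) at 12 h and from 8.21 to 5.13 at 48 h, and CDH6 from 12.40 to 11.84 and from 10.87 to 8.63. KRT8 read 11.19 and 10.60 at 12 h, then 10.55 and 10.53. Of these, CDH6 and KRT8 were also lower in the 48 h than in the 12 h controls, and the part of these shifts in the results below was not tested. The 3 endothelial, 3 leukocyte and 1 podocyte markers stayed under 4. Of 2 distal tubule markers, AQP2 had group means of 4.32 to 4.39 and SLC12A3 stayed under 4. COL1A1 (7.11 to 7.86) and DCN (10.67 to 11.78), listed as fibroblast markers, were present in all groups, both lower in the 48 h than in the 12 h controls, and PDGFRB was not above 4. Poly-A spike-ins, added before labelling, read 6.39 to 6.63 in control and 6.96 to 7.04 in CdCl arrays at 12 h, and 6.05 to 6.24 and 5.74 to 6.64 at 48 h. The difference between the actin probe sets of the 3' and 5' ends, a sign of RNA quality, was 1.71 to 2.11 and 1.69 to 1.80 at 12 h, and 1.36 to 1.57 and 1.40 to 1.82 at 48 h, controls first. The spike-ins thus moved with CdCl at 12 h. At 48 h they lay above the controls in CdCl replicates 1 and 3 (6.64 and 6.54) and below the controls in CdCl replicate 2 (5.74). Both measures were lower in the 48 h than in the 12 h controls. Their part in the results below was not tested.

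The nuclear pore is a ring-shaped channel through the nuclear envelope, made of many copies of its nucleoporins. Scaffold rings hold a central channel of flexible, phenylalanine-glycine rich repeats, and short filaments and a basket extend to the cytoplasmic and nuclear sides. Importin alpha proteins bind cargo with a nuclear localisation signal and are carried in by importin beta. Other importins and exportins of the same fold bind cargo directly, and the small GTPase Ran sets the direction of transport. Pores are built when the nucleus re-forms after mitosis and during interphase growth, and export and import factors are abundant in dividing cells.

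Promoter sequence is shown for KPNA2 and NUP62CL, which fell at both times, and for XPOT and NUP58, which rose at 12 h. Each line gives the 120 bases before the RefSeq gene start (GRCh38.p14, 5′ to 3′ on the gene's strand), at chr17:68035615-68035734 (plus) for KPNA2, chrX:107206434-107206553 (minus) for NUP62CL, chr12:64404272-64404391 (plus) for XPOT and chr13:25301505-25301624 (plus) for NUP58. Capitals mark the CCAAT box (CCAAT on either strand) in KPNA2 and NUP62CL, and the ETS core (CCGGAAG on either strand) in XPOT and NUP58.
KPNA2: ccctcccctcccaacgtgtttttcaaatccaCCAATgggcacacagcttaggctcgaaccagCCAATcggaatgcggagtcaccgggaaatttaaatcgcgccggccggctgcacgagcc
NUP62CL: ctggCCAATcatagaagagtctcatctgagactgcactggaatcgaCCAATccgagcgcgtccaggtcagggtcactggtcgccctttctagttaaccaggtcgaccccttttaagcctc
XPOT: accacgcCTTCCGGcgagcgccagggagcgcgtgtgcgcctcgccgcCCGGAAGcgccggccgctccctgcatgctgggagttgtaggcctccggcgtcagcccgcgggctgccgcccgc
NUP58: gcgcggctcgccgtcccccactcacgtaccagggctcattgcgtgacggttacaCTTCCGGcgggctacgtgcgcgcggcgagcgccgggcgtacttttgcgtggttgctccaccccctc

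KPNA2 and NUP62CL each held 2 CCAAT boxes in this stretch, XPOT held 2 ETS cores and NUP58 held 1. Windows of 300 bases (250 before and 50 after a start) were in the table for 37 of the 43 tested genes, 45 windows in all. A CCAAT box lay in 48.9% of these, in 57.1% of the 14 windows of genes lower at both times and in 34.6% of all 35116 windows. The ETS core lay in 26.7% of the genes' windows and in 10.3% of all windows. The heat shock element (GAANNTTC) lay in 6.67% and 6.77%, the antioxidant response element (TGACNNNGC) in 20% and 13.3%, and the ATF4 composite site (TGATGNAA) in 2.22% and 3.62%. No matches of different motifs shared a base in the genes' windows. The E2F motif (TTTGGCGC, TTTCCCGC, TTTCGCGC or TTTGCCGC) lay in 4.44% and 3.31%, the cell cycle homology region (TTTGAA or TTCGAA) in 24.4% and 16.4%, and the NRF1 half-site (TGCGCA) in 13.3% and 8.24%. Each was searched on both strands. The ETS core lay in 14.3% of the windows of genes lower at both times. Of the 6 windows of genes higher at 12 h, 33.3% held a CCAAT box and 33.3% an ETS core. NUP54 and NUP107, lower at both times, each held 2 ETS cores. Each window of NUP98, higher at 12 h on its brightest probe set, held 2 CCAAT boxes. Any link between motif and direction was not tested. All of these are letter matches and no measure of binding.

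**Figure D1:**
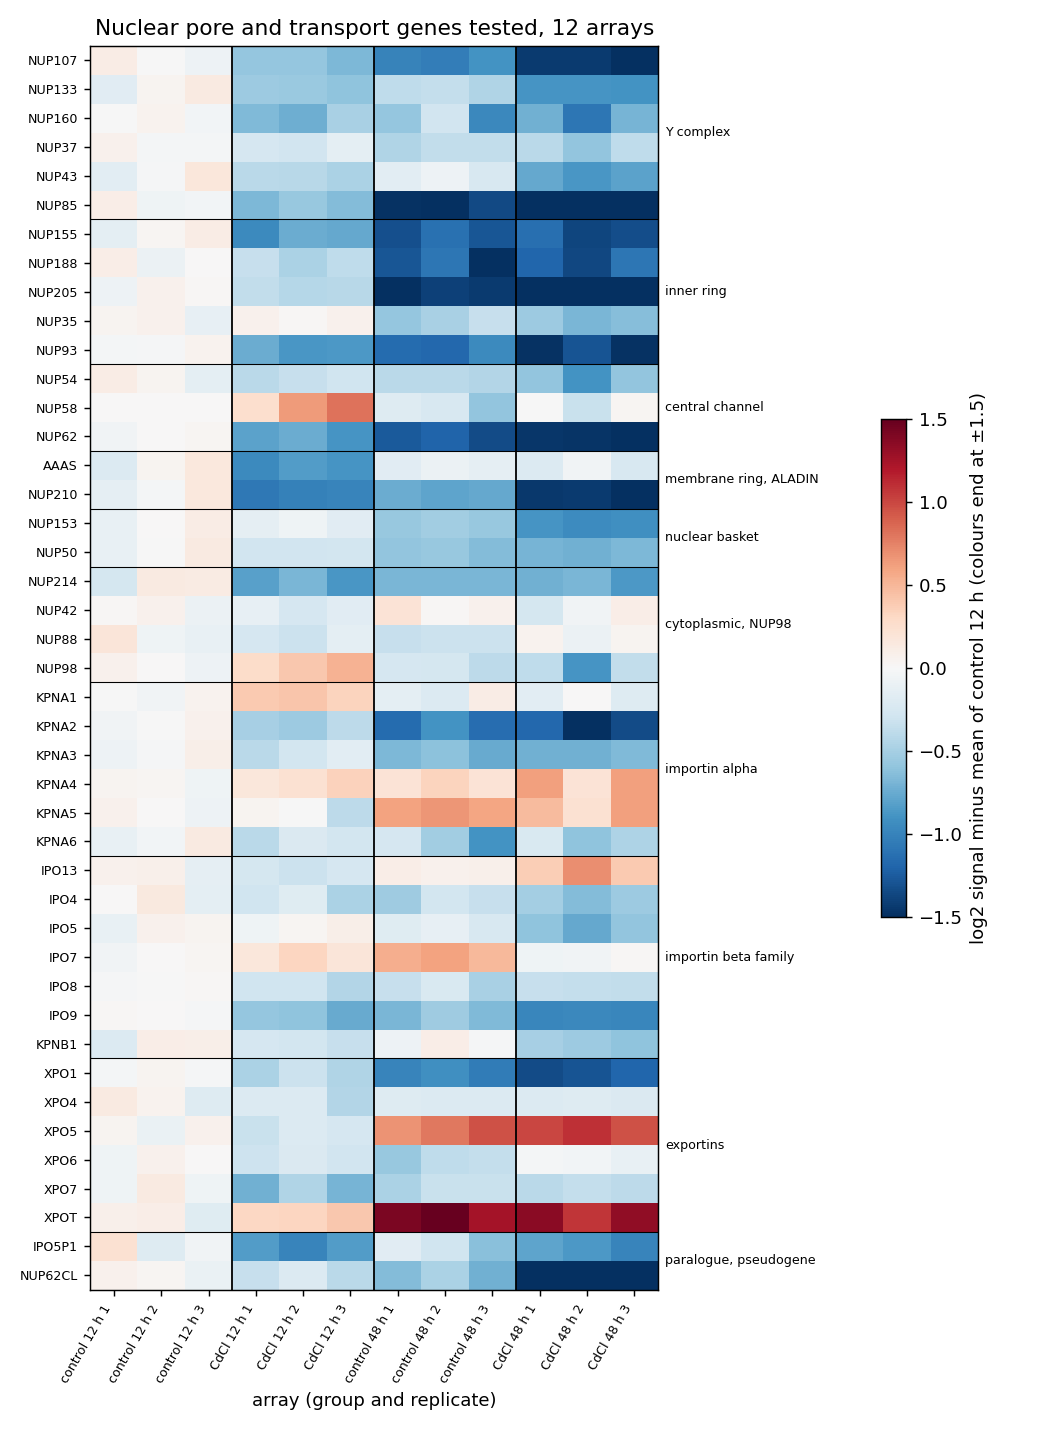
Log2 signal of each of the 43 tested genes (rows, by role) on each of the 12 arrays (columns), minus the mean of the 3 control 12 h arrays. Blue is lower and red is higher, and colours end at 1.5 in both directions. NUP85, NUP205, NUP62 and KPNA2 are blue in control 48 h and in CdCl 48 h arrays, while XPOT and XPO5 are red in both.

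At 12 h most nuclear pore and transport genes were lower with CdCl. Of the 43 tested, 31 fell, 5 rose and 7 did not pass an adjusted p of 0.05, against 39.7% lower and 16.7% higher (56.4% in all) of all genes tested. Their median change was -0.32, beside -0.16 over all genes. NUP58, NUP98, KPNA1, XPOT and IPO7 rose, and NUP210, AAAS, IPO5P1, NUP93, NUP155 and NUP62 fell most. Only NUP210 passed 2-fold, which 4.05% of all genes did downward and 4.43% upward. CdCl arrays did not overlap the controls in 33 genes downward and 6 upward, called genes included, against 46.6% and 19.8% (66.4% in all) of all genes. RNA came from whole cultures, so fewer cells with a transcript and less of it per cell cannot be told apart.

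The downward count at 12 h depended on the scale. After each array was centred on the median of its tested genes, 18 genes were lower (26.5% of all genes) and 6 higher (24.4%), and lower genes made up 75.0% of the calls in place of 86.1% (52.1% in place of 70.4% over all genes). All 18 were among the 31. When each gene was read as the mean of its probe sets, 20 of 42 were lower and 4 higher. The 5 higher calls became 3 when replicate 3 of either 12 h group was left out.

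At 48 h fewer genes differed. Of the 43, 17 fell, 3 rose and 23 did not pass, against 28% lower and 26.5% higher (54.6% in all) of all genes, with a median of -0.17 beside -0.02 over all genes. The 3 that rose were IPO13, XPO6 and NUP88, and the largest falls were in NUP62CL, NUP210, NUP43, IPO7, KPNB1 and IPO5P1. Only NUP62CL passed 2-fold, which 5.05% of all genes did downward and 4.82% upward. CdCl arrays lay clear of the controls in 19 genes downward and 3 upward, against 30.9% and 29.1% (60% in all) of all genes. Centring left 17 lower (26.6% of all genes) and 5 higher (28%), and the mean of probe sets gave 11 lower and 7 higher of 42. With a trended prior variance, 5 were higher.

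Genes lower at both times numbered 14, or 32.6% of the 43, beside 19% of all genes, and 11 (25.6%) beside 14.1% after centring. They were NUP107, NUP133, NUP43, NUP85, NUP93, NUP54, NUP62, NUP210, NUP62CL, KPNA2, KPNB1, IPO9, IPO5P1 and XPO1. On its brightest probe set no gene was higher at both times on the deposited scale, where 11.4% of all genes were, and KPNA4 was after centring. NUP88, XPO6 and IPO13 were lower at 12 h and higher at 48 h, and IPO7 was higher at 12 h and lower at 48 h. The 12 h falls of NUP88, XPO6 and IPO13 did not pass after centring (adjusted p = 0.36, 0.18 and 0.31).

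**Figure D2:**
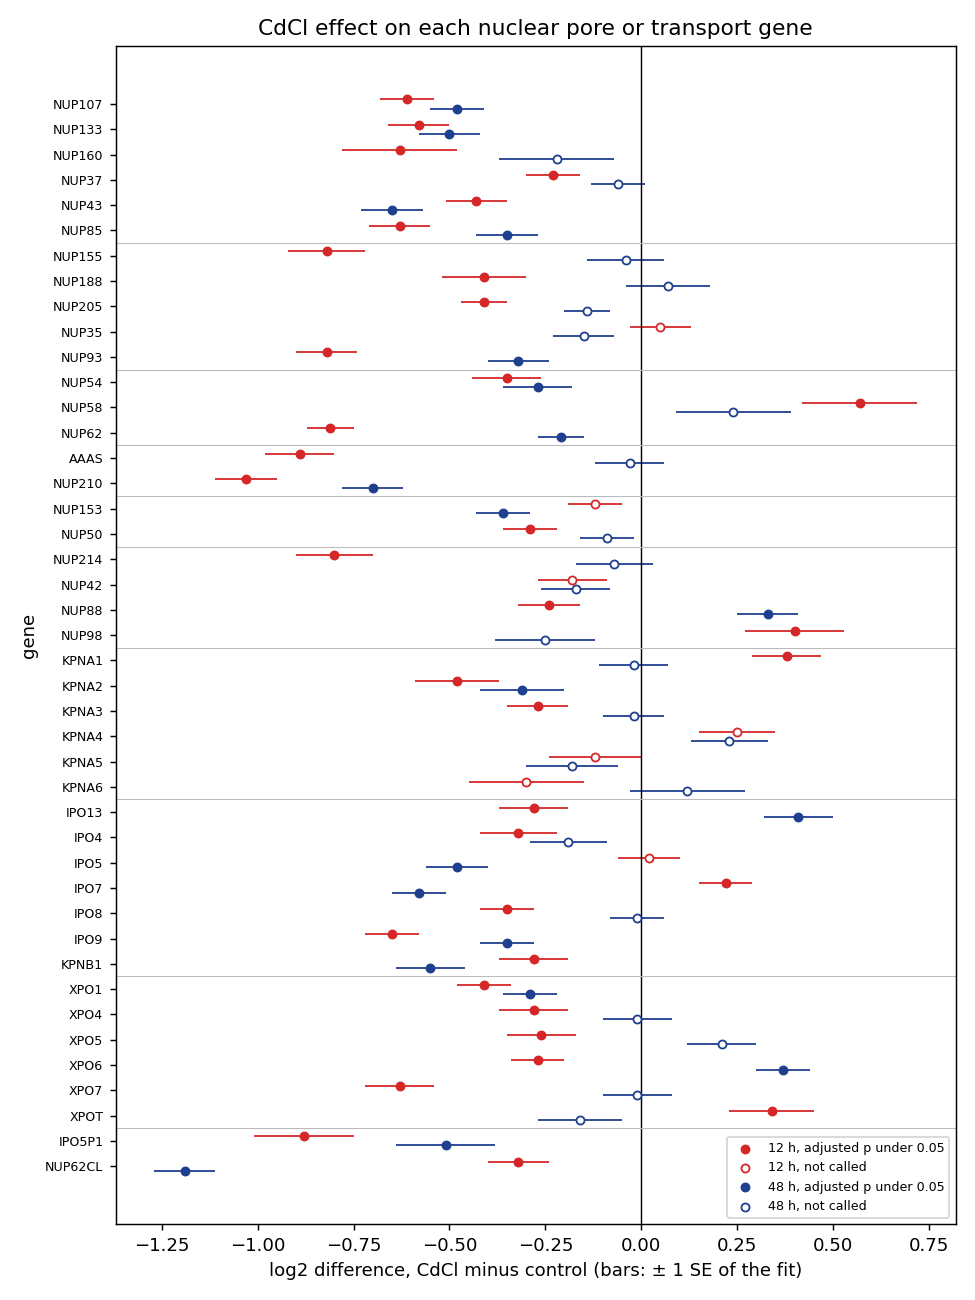
Log2 difference between CdCl and control for each gene at 12 h (red) and 48 h (blue), with bars of 1 SE of the limma fit on either side. Filled points passed an adjusted p of 0.05. The 6 genes of the Y complex at the top all lie left of 0 at both times, and IPO7, IPO13, XPO6 and NUP88 have points on opposite sides of 0.

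The Y complex is the scaffold unit of the outer rings, and its 6 subunits with NUP symbols (NUP37, NUP43, NUP85, NUP107, NUP133 and NUP160) fell at 12 h on the deposited scale, with changes of -0.23 to -0.63. Of all genes 39.7% fell at that time. After centring 5 of the 6 fell, beside 26.5% of all genes. Among the Y complex subunits without such symbols, SEH1L and SEC13 did not fall, while AHCTF1 fell at 48 h. AHCTF1 changed by -0.14 at 12 h (adjusted p = 0.092) and by -0.36 at 48 h (adjusted p = 0.00083). A second probe set of AHCTF1 fell at both times (-0.31, adjusted p = 0.003, and -0.37, adjusted p = 0.00095). SEH1L rose at both times (0.24, adjusted p = 0.007, and 0.25, adjusted p = 0.0057), and SEC13, which also coats secretory vesicles, changed by -0.01 at 12 h (adjusted p = 0.94) and rose by 0.59 at 48 h (adjusted p = 3e-05). NUP107 read 10.75, 10.63 and 10.56 in control and 10.06, 10.06 and 9.97 in CdCl arrays at 12 h, then 9.64, 9.60 and 9.74 in control and 9.21, 9.20 and 9.12 in CdCl arrays at 48 h. The CdCl arrays lay under the controls at each time, and the 48 h controls lay under the CdCl arrays of 12 h. NUP107 changed by -0.61 ± 0.07 (SE, adjusted p = 2.3e-05) at 12 h and by -0.48 ± 0.07 (adjusted p = 0.00013) at 48 h.

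NUP43, a small propeller subunit of that complex, read 10.82, 10.96 and 11.15 in control and 10.57, 10.56 and 10.50 in CdCl arrays at 12 h. At 48 h it read 10.82, 10.90 and 10.74 in control and 10.21, 10.11 and 10.18 in CdCl arrays. Control cells held about the same level at both times, and the CdCl arrays lay below them at each. The changes were -0.43 ± 0.08 (adjusted p = 0.0011) and -0.65 ± 0.08 (adjusted p = 5.3e-05), the third largest fall at 48 h.

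Of the others, NUP133 changed by -0.58 ± 0.08 and -0.50 ± 0.08, and NUP85 by -0.63 ± 0.08 and -0.35 ± 0.08, at 12 h and 48 h. NUP160 (-0.63 at 12 h, -0.22 at 48 h) and NUP37 (-0.23, -0.06) did not pass at 48 h, and the 12 h fall of NUP37 ended when CdCl 12 h replicate 1, CdCl 12 h replicate 2 or control 12 h replicate 1 was left out (adjusted p = 0.056 to 0.066) and after centring (-0.08, adjusted p = 0.38). Dim second probe sets of NUP43, NUP133 and NUP160, with means of 4.98, 4.53 and 4.28, went the other way at 12 h (0.98, 0.75 and 0.60). The difference between the times passed in none of the 6 NUP-named subunits by limma, although NUP43 passed after centring (-0.34, adjusted p = 0.049). It passed in SEC13 (0.60, adjusted p = 0.00086) and not in SEH1L (0.01, adjusted p = 0.94).

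The inner ring anchors the central channel to the pore membrane, and 4 of its 5 genes fell at 12 h, beside 39.7% of all genes. After centring 3 of the 5 fell, beside 26.5% of all genes. NUP93, the linker that ties this ring together, read 9.29, 9.30 and 9.37 in control and 8.58, 8.45 and 8.46 in CdCl arrays at 12 h. At 48 h it read 8.17, 8.14 and 8.36 in control and 7.84, 8.02 and 7.84 in CdCl arrays. The groups did not overlap at either time, with changes of -0.82 ± 0.08 (adjusted p = 6.6e-06) and -0.32 ± 0.08 (adjusted p = 0.005).

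NUP155, a membrane-binding member of the ring, read 8.87, 9.05 and 9.13 in control and 8.07, 8.28 and 8.25 in CdCl arrays at 12 h, a change of -0.82 ± 0.10 (adjusted p = 3.3e-05). At 48 h its values were 7.70, 7.90 and 7.74 in control and 7.89, 7.64 and 7.69 in CdCl arrays (-0.04 ± 0.10, adjusted p = 0.75). The early groups were apart and the late ones overlapped. The large scaffold genes NUP188 and NUP205 each changed by -0.41 at 12 h, and by 0.07 and -0.14 at 48 h without passing. NUP188 did not pass at 12 h after centring (adjusted p = 0.055). NUP35 did not pass at either time (0.05 and -0.15).

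The central channel is lined by NUP54, NUP58 and NUP62, which form a complex of repeat-bearing proteins, and they did not move together. NUP62 read 8.56, 8.62 and 8.64 in control and 7.81, 7.86 and 7.72 in CdCl arrays at 12 h. At 48 h it read 7.35, 7.41 and 7.27 in control and 7.15, 7.14 and 7.11 in CdCl arrays. CdCl arrays lay lower at both times, and the controls at 48 h lay under the CdCl arrays of 12 h. The CdCl changes were -0.81 ± 0.06 (adjusted p = 1.3e-06) and -0.21 ± 0.06 (adjusted p = 0.016, and 0.060 without control 48 h replicate 2).

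NUP58, whose promoter with its single ETS core is shown above, read 8, 8.01 and 8.01 in control and 8.25, 8.64 and 8.82 in CdCl arrays at 12 h. It was the largest rise among the 43 genes, 0.57 ± 0.15 (1.48-fold, adjusted p = 0.0069), and its other probe sets gave 1.33, 1.67 and 0.22. At 48 h it read 7.81, 7.76 and 7.41 in control and 7.99, 7.67 and 8.03 in CdCl arrays, which overlapped (0.24 ± 0.15, adjusted p = 0.20). The other probe sets of NUP58 gave 0.37 (adjusted p = 0.27), 0.67 (adjusted p = 0.0012) and 0.52 (adjusted p = 0.037) at 48 h, in the same order. NUP54 changed by -0.35 ± 0.09 and -0.27 ± 0.09, and its 48 h fall ended when CdCl 48 h replicate 2 or a control 48 h replicate, 1 or 2, was left out (adjusted p = 0.064 to 0.099). Its 12 h fall did not pass after centring (adjusted p = 0.068).

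The membrane ring glycoprotein gene NUP210 had the largest fall at 12 h. It read 7.06, 7.16 and 7.35 in control and 6.12, 6.18 and 6.20 in CdCl arrays at 12 h, and 6.44, 6.40 and 6.42 against 5.74, 5.75 and 5.65 at 48 h. No CdCl array reached a control array of its time. It was 2.04-fold lower at 12 h (-1.03 ± 0.08, adjusted p = 7.7e-07) and 1.63-fold lower at 48 h (-0.70 ± 0.08, adjusted p = 1.1e-05). Each of its 4 other tested probe sets also gave a negative change at both times, though not all passed. At 12 h they gave -0.94, -0.26 (adjusted p = 0.15), -0.65 and -1.25, of which only -0.26 did not pass. At 48 h they gave -0.25 (adjusted p = 0.05), -0.31 (adjusted p = 0.091), -0.53 (adjusted p = 0.011) and -0.61 (adjusted p = 0.063), in the same order.

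AAAS encodes ALADIN, a pore protein mutated in triple A syndrome. It read 4.66, 4.90 and 5.02 in control and 3.91, 4.02 and 3.98 in CdCl arrays at 12 h, then 4.69, 4.77 and 4.73 against 4.66, 4.81 and 4.62 at 48 h. The CdCl 12 h arrays stood below the other 9, at the level of the filter on weak signals. The changes were -0.89 ± 0.09 (adjusted p = 9.6e-06) and -0.03 ± 0.09 (adjusted p = 0.79), and the difference between them, 0.86 ± 0.13, was the largest upward one of all 43 genes (adjusted p = 0.00041).

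On the cytoplasmic face, NUP214 and its partner NUP88 hold the platform where messenger RNA leaves the pore. NUP214 read 6.24, 6.64 and 6.62 in control and 5.68, 5.81 and 5.63 in CdCl arrays at 12 h (-0.80 ± 0.10, adjusted p = 5.4e-05), and 5.82, 5.81 and 5.81 against 5.78, 5.81 and 5.64 at 48 h (-0.07 ± 0.10, adjusted p = 0.60). Its CdCl arrays at 12 h and all its arrays at 48 h lay at about the same level, and a dimmer probe set gave 0.05 at 12 h. NUP88 read 9.97, 9.72 and 9.68 in control and 9.54, 9.47 and 9.64 in CdCl arrays at 12 h.

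The order of NUP88 turned at 48 h, with 9.44, 9.47 and 9.47 in control and 9.84, 9.70 and 9.83 in CdCl arrays. It changed by -0.24 ± 0.08 (adjusted p = 0.028, but 0.067 to 0.11 leaving out replicate 1 of either 12 h group or replicate 2 of CdCl 12 h) and by 0.33 ± 0.08 (adjusted p = 0.0062). NUP42, which works with GLE1 in messenger RNA release, did not pass at either time (-0.18 and -0.17).

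NUP98 encodes a mobile repeat-bearing nucleoporin and, from the same transcript, the Y complex protein NUP96. Its brightest probe set read 7.96, 7.91 and 7.82 in control and 8.17, 8.31 and 8.42 in CdCl arrays at 12 h (0.40 ± 0.13, adjusted p = 0.018), and 7.65, 7.64 and 7.51 against 7.52, 7.01 and 7.53 at 48 h (-0.25 ± 0.13, adjusted p = 0.12). The 12 h rise ended when replicate 3 of either 12 h group was left out (adjusted p = 0.058 to 0.068). Another probe set gave -0.57 at 12 h and 0.29 at 48 h, both past the threshold, so the probe sets of NUP98 disagreed in direction.

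The basket genes NUP153 and NUP50 face the nucleus. NUP153 read 10.12, 10.24 and 10.34 in control and 10.10, 10.17 and 10.06 in CdCl arrays at 12 h, which overlapped (-0.12 ± 0.07, adjusted p = 0.15). At 48 h it read 9.66, 9.71 and 9.66 against 9.35, 9.29 and 9.31, all CdCl arrays lower (-0.36 ± 0.07, adjusted p = 0.00088). NUP50 changed by -0.29 ± 0.07 at 12 h and -0.09 at 48 h, the latter not past the threshold, and its 12 h fall did not pass after centring (adjusted p = 0.13). Its other tested probe sets gave -0.37 (adjusted p = 0.0039), 0.06 and 0.16 at 12 h. In the same order they gave -0.17, 0.26 (adjusted p = 0.025) and -0.13 at 48 h, and those without an adjusted p did not pass.

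NUP62CL had the largest fall at 48 h, and its promoter with the 2 CCAAT boxes is among those shown above. It read 8.53, 8.49 and 8.36 in control and 8.12, 8.26 and 8.05 in CdCl arrays at 12 h, then 7.81, 7.99 and 7.74 against 6.65, 6.60 and 6.71 at 48 h. The CdCl 48 h arrays lay more than 1 log2 unit under any other array. It was 2.29-fold lower at 48 h (-1.19 ± 0.08, adjusted p = 4.1e-07) and 1.25-fold at 12 h (-0.32 ± 0.08, adjusted p = 0.0074, and 0.087 after centring).

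IPO5P1 read 6.08, 5.66 and 5.80 in control and 5.01, 4.86 and 5.01 in CdCl arrays at 12 h, and 5.68, 5.55 and 5.22 against 5.06, 4.99 and 4.86 at 48 h. Groups did not overlap at either time, with changes of -0.88 ± 0.13 (adjusted p = 0.00013) and -0.51 ± 0.13 (adjusted p = 0.0053). The 12 h change of IPO5 itself was 0.02 ± 0.08 on its brightest probe set, and -0.24 (adjusted p = 0.020), -0.13 and -0.18 on its 3 others tested, of which the last 2 did not pass.

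**Figure D3:**
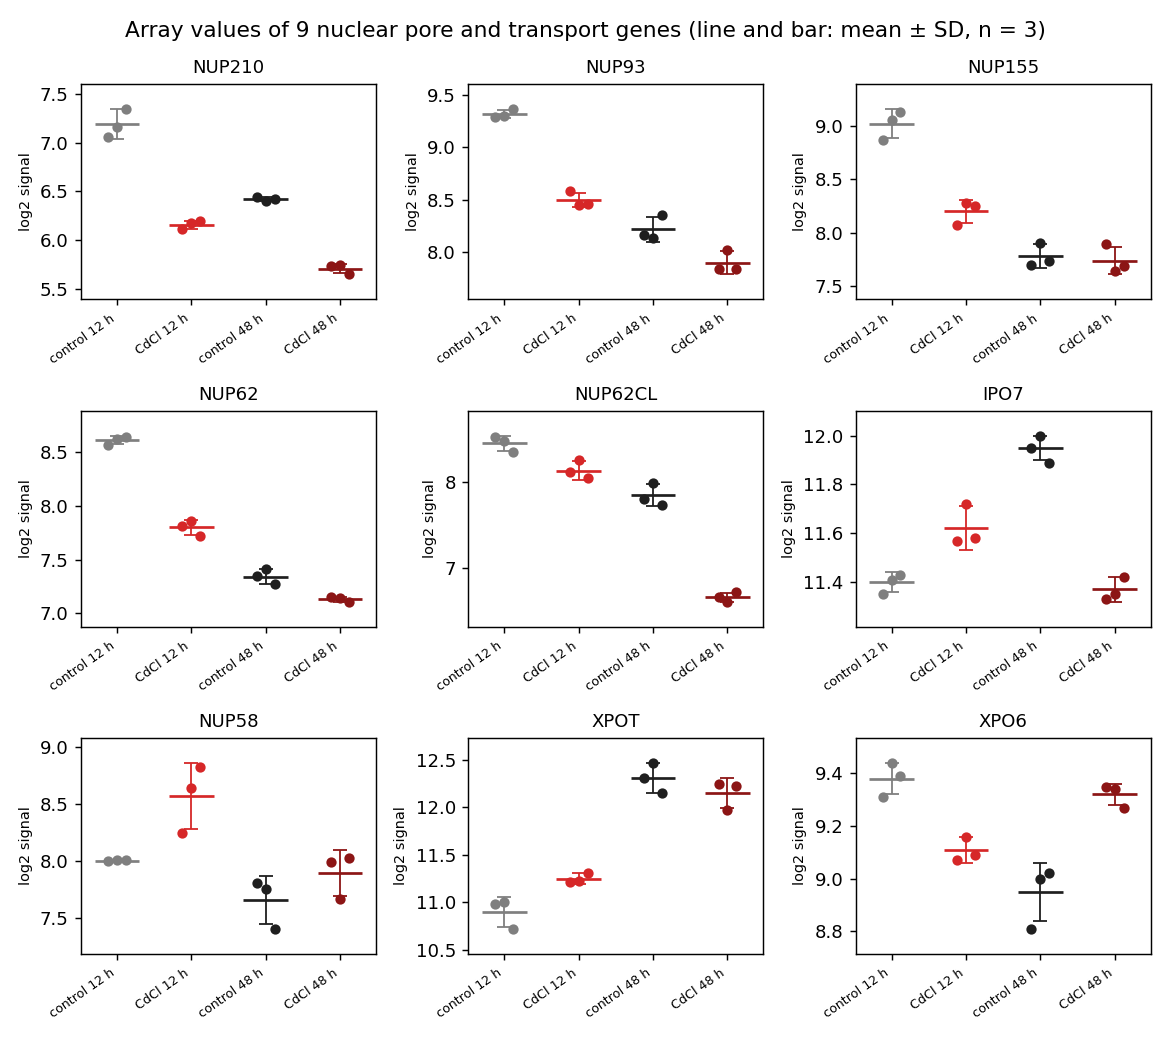
Log2 signal on each array (points) of 9 nuclear pore and transport genes in the 4 groups, with the mean and SD of 3 arrays. The vertical axes differ and do not start at 0. NUP210, NUP93 and NUP62 step down in both control and CdCl cells, NUP62CL drops furthest in CdCl 48 h arrays, IPO7 is highest in control 48 h arrays, and XPO6 is lowest in control 48 h arrays.

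Importin alpha genes encode the cargo adaptors. Of 6 tested (KPNA1 to KPNA6), 1 rose and 2 fell at 12 h, beside 16.7% and 39.7% of all genes, and 1 fell at 48 h, beside 28%. After centring 2 rose and 1 fell at 12 h, and 1 rose and 1 fell at 48 h. KPNA2, the adaptor of dividing cells, read 13.32, 13.36 and 13.43 in control and 12.87, 12.83 and 12.98 in CdCl arrays at 12 h, and 12.21, 12.47 and 12.23 against 12.19, 11.77 and 12.03 at 48 h. The groups lay apart at 12 h and lay next to each other at 48 h, with changes of -0.48 ± 0.11 (adjusted p = 0.0024) and -0.31 ± 0.11 (adjusted p = 0.029). The 48 h call ended when replicate 2 of either 48 h group was left out (adjusted p = 0.11 to 0.12).

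KPNA1, another of these adaptors, read 8.53, 8.49 and 8.59 in control and 8.93, 8.96 and 8.87 in CdCl arrays at 12 h, and 8.39, 8.33 and 8.65 against 8.38, 8.55 and 8.35 at 48 h. It rose at 12 h by 0.38 ± 0.09 (adjusted p = 0.0032) and overlapped at 48 h (-0.02 ± 0.09, adjusted p = 0.84). The next brightest probe set of KPNA1 rose at 12 h (0.22, adjusted p = 0.028) and fell at 48 h (-0.34, adjusted p = 0.0023). The rest gave -0.25 to 0.16 at 48 h without passing. KPNA3 changed by -0.27 ± 0.08 at 12 h (adjusted p = 0.011, 0.23 after centring and 0.051 without CdCl 12 h replicate 1). A second probe set of KPNA3 gave 0.21 at 12 h without passing (adjusted p = 0.15). KPNA4 gave 0.25 and 0.23 and passed at neither time, but did at both after centring (0.40 and 0.26). KPNA5 (-0.12 and -0.18) and KPNA6 (-0.30 and 0.12) did not pass.

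The importin beta family fell in 5 of 7 tested genes at 12 h (beside 39.7% of all genes) and in 4 at 48 h (beside 28%), and after centring in 2 at 12 h and 4 at 48 h. KPNB1, importin beta itself, read 11.92, 12.22 and 12.21 in control and 11.87, 11.85 and 11.78 in CdCl arrays at 12 h, and 12.04, 12.22 and 12.10 against 11.62, 11.58 and 11.52 at 48 h. On this brightest probe set the gap was wider at 48 h (-0.55 ± 0.09, adjusted p = 0.00023) than at 12 h (-0.28 ± 0.09, adjusted p = 0.016). The difference between the times did not pass (-0.27, adjusted p = 0.10) unless arrays were centred (-0.39, adjusted p = 0.035). The 12 h call ended after centring (adjusted p = 0.26) and when replicate 3 of either 12 h group or control 12 h replicate 2 was left out (adjusted p = 0.055 to 0.066). The other probe sets of KPNB1 disagreed on the wider gap. The second brightest gave -0.38 at 12 h (adjusted p = 0.0021) and -0.14 at 48 h (adjusted p = 0.16), a difference of 0.24 (adjusted p = 0.13). On the rest the difference was 0.01 (adjusted p = 0.96), -0.47 (adjusted p = 0.034), -0.53 (adjusted p = 0.0025) and -0.50 (adjusted p = 0.053).

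IPO7, an importer of ribosomal proteins and, with importin beta, of linker histone, read 11.35, 11.41 and 11.43 in control and 11.57, 11.72 and 11.58 in CdCl arrays at 12 h. At 48 h it read 11.95, 12.00 and 11.89 in control and 11.33, 11.35 and 11.42 in CdCl arrays. On this probe set control cells were higher at 48 h than at 12 h, and CdCl cells at 48 h were at the level of the 12 h controls. The rise with time in control cells was smaller or absent on the other probe sets of IPO7. These gave 0.29 (adjusted p = 0.011), 0.15 (adjusted p = 0.23) and -0.02 (adjusted p = 0.85). The 48 h fall was 0.58 ± 0.07 in size (-0.58, adjusted p = 1.7e-05) and its 3 other probe sets gave -0.58 to -0.65. The 12 h rise (0.22 ± 0.07, adjusted p = 0.012) did not hold without CdCl 12 h replicate 2 (adjusted p = 0.055), and its other probe sets gave -0.10 to 0.08 with none past the threshold.

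IPO8, the closest relative of IPO7, changed by -0.35 ± 0.07 at 12 h (adjusted p = 0.0019) and by -0.01 at 48 h (adjusted p = 0.96). IPO9, an importer of core histones and actin, fell at both times (-0.65 ± 0.07 and -0.35 ± 0.07), and IPO5, another importer of ribosomal proteins, at 48 h (-0.48 ± 0.08, adjusted p = 0.00029). IPO4 changed by -0.32 ± 0.10 at 12 h, a call that ended after centring (adjusted p = 0.16) and when CdCl 12 h replicate 3 or else replicate 2 of its controls was left out (adjusted p = 0.083 each), and by -0.19 at 48 h without passing.

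IPO13 carries cargo in both directions. It read 5.68, 5.70 and 5.49 in control and 5.36, 5.30 and 5.37 in CdCl arrays at 12 h, and 5.72, 5.68 and 5.70 against 5.99, 6.32 and 6.01 at 48 h. The CdCl arrays lay below the controls early and above them late, and the rise of 0.41 ± 0.09 (1.32-fold, adjusted p = 0.0028) was the largest of the 43 genes at 48 h. The 12 h fall of 0.28 ± 0.09 in size (-0.28, adjusted p = 0.022) ended when replicate 2 of either 12 h group or control 12 h replicate 1 was left out (adjusted p = 0.064 to 0.078).

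Exportins carry cargo out of the nucleus with Ran bound, and 5 of 6 fell at 12 h while 1 rose, beside 39.7% and 16.7% of all genes. After centring 2 fell and 1 rose. XPO1, the exporter of proteins with a leucine-rich signal, read 12.62, 12.69 and 12.63 in control and 12.18, 12.33 and 12.20 in CdCl arrays at 12 h, and 11.66, 11.73 and 11.60 against 11.31, 11.36 and 11.46 at 48 h. Each group lay apart from the other 3, with the 12 h controls highest, then CdCl at 12 h, the 48 h controls and CdCl at 48 h. The CdCl changes were -0.41 ± 0.07 (adjusted p = 0.00038) and -0.29 ± 0.07 (adjusted p = 0.0044). They did not pass on a dimmer probe set of XPO1 (-0.50, adjusted p = 0.071, and -0.07, adjusted p = 0.81).

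XPOT exports transfer RNA, and its promoter with 2 ETS cores is shown above. It read 10.98, 11 and 10.72 in control and 11.21, 11.22 and 11.31 in CdCl arrays at 12 h, and 12.31, 12.47 and 12.15 against 12.25, 11.97 and 12.23 at 48 h. CdCl arrays were higher at 12 h (0.34 ± 0.11, adjusted p = 0.018, and 0.059 to 0.076 leaving out replicate 3 of either 12 h group) and overlapped the controls at 48 h (-0.16 ± 0.11, adjusted p = 0.23). All arrays at 48 h lay above all arrays at 12 h.

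XPO6, the exporter of actin bound to profilin, read 9.31, 9.44 and 9.39 in control and 9.07, 9.16 and 9.09 in CdCl arrays at 12 h, and 8.81, 9.00 and 9.02 against 9.35, 9.34 and 9.27 at 48 h. The order of the groups turned between the times (-0.27 ± 0.07, adjusted p = 0.0063, and 0.37 ± 0.07, adjusted p = 0.0009), although its second probe set gave 0.02 and 0.16 with no call. XPO7, an exportin of broad cargo, fell at 12 h (-0.63 ± 0.09, and -0.01 at 48 h, a difference of 0.61 with adjusted p = 0.0023), and its second probe set gave 0.54 at 12 h without passing.

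XPO5, the exporter of microRNA precursors, changed by -0.26 ± 0.09 at 12 h and 0.21 at 48 h, and XPO4 by -0.28 ± 0.09 and -0.01. Neither passed at 48 h, and neither 12 h fall passed after centring (adjusted p = 0.32 and 0.23). Both 12 h falls also ended when 1 of 3 arrays was left out. For XPO5 these were CdCl 12 h replicate 1 and control 12 h replicates 1 and 3 (adjusted p = 0.065 to 0.077), and for XPO4 CdCl 12 h replicate 3 and control 12 h replicates 1 and 2 (adjusted p = 0.061 to 0.083).

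The difference between the CdCl effects (48 h minus 12 h) was tested for each gene. It was upward in 15 and downward in 6 of the 43, against 27% and 13% of all genes (40.1% in all), and 9 and 10 after centring (17.9% and 18.6%). The largest upward differences were in AAAS (0.86), NUP155 (0.77), NUP214 (0.73) and IPO13 (0.68), of which AAAS, NUP155 and NUP214 fell at 12 h and did not pass at 48 h. The largest downward ones were in NUP62CL (-0.88), IPO7 (-0.81), NUP98 (-0.65) and XPOT (-0.51).

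In control cells most of these genes were lower at 48 h than at 12 h: 28 fell, 4 rose and 11 did not pass, against 33.5% lower and 23.4% higher of all genes, with a median of -0.40 beside -0.06. The actin difference (1.71 to 2.11 at 12 h, 1.36 to 1.57 at 48 h) and the spike-ins (6.39 to 6.63, 6.05 to 6.24) of these controls moved with the same comparison, and their part was not tested. After centring 27 were lower (28.2% of all genes) and 5 higher (29%). All 5 inner ring genes fell, from -0.47 for NUP35 to -1.44 for NUP205, with NUP188 at -1.29, NUP155 at -1.24 and NUP93 at -1.10. NUP85 changed by -1.44 ± 0.08, NUP62 by -1.26 ± 0.06, KPNA2 by -1.07 ± 0.11 and XPO1 by -0.98 ± 0.07. A dimmer probe set of XPO1 (mean 7.22) gave 0.08 with time (adjusted p = 0.78). The 4 that rose were XPOT (1.41 ± 0.11, 2.66-fold, adjusted p = 6.3e-07), XPO5 (0.81), KPNA5 (0.62) and IPO7 (0.55). The other probe sets of IPO7 gave -0.02 to 0.29 with time.

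The control comparison and the CdCl comparison at 12 h share the 3 control 12 h arrays. Side by side, NUP205 gave -1.44 with time in control cells and -0.41 with CdCl at 12 h, NUP85 -1.44 and -0.63, NUP62 -1.26 and -0.81, and KPNB1 0.00 and -0.28. The other probe sets of KPNB1 gave -0.38, -0.46, -0.28 and -0.52 with time, all past the threshold, and -0.05, which did not pass. For NUP43 and AAAS the values were -0.16 and -0.13 with time, neither past the threshold, and -0.43 and -0.89 with CdCl.

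**Figure D4:**
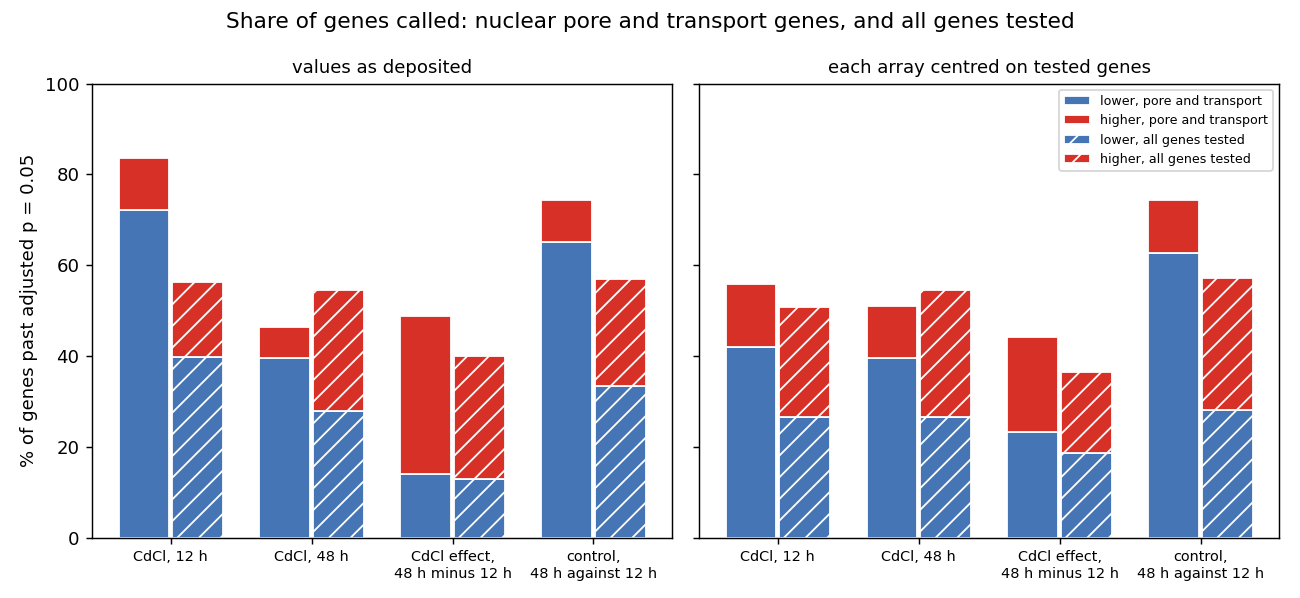
Percentage of genes past an adjusted p of 0.05 in 4 comparisons, lower in blue and higher in red, for the 43 nuclear pore and transport genes (plain) and all 10683 genes tested (hatched). The left panel uses the deposited values and the right panel arrays centred on their tested genes. At 12 h the lower share of the 43 is 72.1% on the left and 41.9% on the right, beside 39.7% and 26.5% of all genes.

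Other genes of nuclear transport and the envelope, named by role, were read the same way. Of 57 tested, 28 fell and 4 rose at 12 h, and 17 fell and 12 rose at 48 h, with medians of -0.24 and -0.11, beside 39.7% lower and 16.7% higher of all genes at 12 h and 28% and 26.5% at 48 h. After centring 16 were lower and 8 higher at 12 h, beside 26.5% and 24.4% of all genes. Of 10 remaining pore subunits 3 fell and 1 rose at 12 h, and 2 fell and 2 rose at 48 h. Of 6 Ran cycle genes 3 fell and 0 rose at 12 h (1 and 0 after centring), and 3 fell and 1 rose at 48 h.

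HIKESHI, the carrier that brings HSP70 into the nucleus under heat stress, rose at both times. It read 9.65, 9.47 and 9.46 in control and 10.38, 10.54 and 10.49 in CdCl arrays at 12 h, and 9.76, 9.66 and 9.80 against 10.54, 10.65 and 10.69 at 48 h. The CdCl arrays stood above every control array, by 0.94 ± 0.08 (adjusted p = 1.9e-06) and 0.89 ± 0.08 (adjusted p = 2.2e-06). NXT2, a cofactor of the messenger RNA exporter, rose 2.06-fold and 2.00-fold, and SYNE1, of the outer nuclear membrane, by 0.83 and 0.61.

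Of the index genes, RAN changed by -0.24 ± 0.06 at 12 h (adjusted p = 0.0039, and 0.27 after centring) and by -0.01 at 48 h. A second probe set of RAN went the other way at 12 h, with a log2 change of 0.26 (adjusted p = 0.035). CSE1L, which returns importin alpha to the cytoplasm, fell at both (-0.22 ± 0.07 and -0.34 ± 0.07), but its 12 h call ended after centring (-0.08, adjusted p = 0.42). RANBP2, of the cytoplasmic filaments, did not pass at either time (-0.15 and -0.23), though another of its probe sets gave 0.49 at 12 h. RANGAP1, the activator of Ran's GTPase, rose at 48 h by 0.70 ± 0.10 and did not pass at 12 h (-0.08). Its other probe sets gave -0.54 (adjusted p = 0.0018) and -0.27 (adjusted p = 0.088) at 12 h, and rose at 48 h (0.40 and 0.69).

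In the lamina and envelope, 11 of 15 tested genes fell and 1 rose at 12 h (7 and 2 after centring), and 6 fell and 1 rose at 48 h. Of all genes tested, 39.7% fell and 16.7% rose at 12 h (26.5% and 24.4% after centring), and 28% and 26.5% at 48 h. LMNB2 and LMNA, which encode lamins, changed by -1.11 ± 0.18 and -0.94 ± 0.11 at 12 h and did not pass at 48 h (0.18 and -0.15). LMNB1, the other B-type lamin gene, changed by -0.41 at 12 h (adjusted p = 0.0069, and 0.054 after centring) and by -1.67 ± 0.11 at 48 h (3.18-fold lower, adjusted p = 2.1e-07). SYNE2 and the lamin-binding TMPO changed by -1.56 ± 0.14 and -1.23 ± 0.07 at 48 h. Of 18 messenger RNA export genes, 8 fell and 1 rose at 12 h, beside 39.7% and 16.7% of all genes. After centring 5 fell and 3 rose, beside 26.5% and 24.4%. MCM3AP fell most at 12 h (-1.07 ± 0.14, with 0.18 on its second probe set). At 48 h 3 of the 18 fell and 6 rose, beside 28% and 26.5% of all genes.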

How the data were processed

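Per the submitters' processing notes the authors made the deposited log2 signals with GCRMA, a method that adjusts background by probe sequence, scales arrays to each other and combines probes; its version and the scanner files' depth are not given in the sources used here, so the number of arrays limits the precision. Of 54675 probe sets, 41091 outside the 62 Affymetrix controls carried exactly 1 symbol in the platform annotation. Genes were read on their brightest probe set, since levels of different probe sets are not comparable. A limma 3.58.1 fit in R 4.3.3 (lmFit, eBayes, constant prior) of the 4 group means over all 12 arrays gave two-sided tests, adjusted by Benjamini-Hochberg over 10683 genes with a threshold of 0.05. ± after a change is the SE of the fit. An exact permutation of 3 arrays against 3 cannot go below 0.1. The fit was tested on simulated data.

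Genes with values on every array are the 6 largest rises and falls with CdCl at each time among called genes whose groups do not overlap, the 4 largest differences between times in each direction, and the index genes KPNB1, KPNA2, XPO1, NUP98, NUP153, NUP62 and AAAS; the values of NUP107 and HIKESHI on every array, and changes of further genes, were added after values were seen. From the other lists the 3 largest in each direction and RAN, CSE1L and RANBP2 are named. The genes, lists and tests were chosen with earlier results of these data known. Centring on tested genes was added after seeing the data. Same-numbered replicates did not deviate together (median correlation of residuals -0.02 over 18 pairs, with -0.34 to 0.16), so no pairing was used. Promoter windows come from RefSeq (GRCh38.p14), of which 42 of the 49 genes had at least 1.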

Additional observations from a re-analysis of the deposited data

Results flagged for a closer look

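The CdCl effect differed between 48 h and 12 h, by limma's test of the difference (adjusted p under 0.05), in 21 of the 43 genes, beside 40.1% of all genes tested. Upward differences among nucleoporins were AAAS 0.86, NUP155 0.77, NUP214 0.73, NUP62 0.60, NUP88 0.57, NUP93 0.50, NUP188 0.48, NUP210 0.32 and NUP205 0.27. Upward differences among receptors were IPO13 0.68, XPO6 0.65, XPO7 0.61, XPO5 0.47, IPO8 0.34 and IPO9 0.30. Downward differences were NUP62CL -0.88, IPO7 -0.81, NUP98 -0.65, XPOT -0.51, IPO5 -0.50 and KPNA1 -0.41. Of the upward ones XPO5, IPO8, IPO9, NUP188, NUP205 and NUP210 did not pass after centring on tested genes, and KPNB1, NUP35, NUP153 and NUP43 passed downward there. Leaving out 1 array ended the call of NUP210 for 8 of the 12 arrays (adjusted p = 0.053 to 0.072), of NUP188 for 6 (0.05 to 0.063), of NUP205 for 6 (0.051 to 0.066), of KPNA1 for 4 (0.051 to 0.052) and of IPO9 for 3 (0.053 to 0.064). It ended that of IPO8 without CdCl 12 h replicate 3 (0.053) and of XPOT without control 48 h replicate 2 (0.051).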

How the results depend on the processing

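Centring on tested genes, chosen after seeing the data, gave 18 lower genes in place of 31 at 12 h and 5 higher in place of 3 at 48 h, and 9 upward and 10 downward differences between times in place of 15 and 6. It gave 8 higher and 16 lower of the 57 other transport genes at 12 h and 11 upward differences between times. The median change of all tested genes at 12 h was -0.16 on the deposited scale and -0.13 after quantile normalization. Centring brings that median near 0 by construction (-0.01), and the source of the shift was not tested. The mean of all probe sets gave 20 lower at 12 h, 7 higher and 11 lower at 48 h, 8 higher with time in control cells, and 8 downward differences among the other genes, and a trended prior 5 higher at 48 h. Of the other genes, 3 rose with time under median centring and 3 with only the 6 arrays compared. Leaving out 1 array gave 3 to 6 higher genes at 12 h, and 2 to 5 other genes higher with time in control cells (2 without control 48 h replicate 1).

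With the mean of probe sets these values changed sign, and the cause was not tested beyond the second probe sets given above: NUP98 (-0.14 at 12 h, 0.19 between times), NUP133 (0.09), NUP160 (0.07) and NUP43 (0.27) at 12 h, XPO4 (0.42) at 48 h, XPO7 (-0.08) and IPO8 (-0.17) between times, and XPO7 (0.29), KPNA1 (0.17), IPO8 (0.04), KPNB1 (-0.28), NUP133 (0.18) and NUP43 (0.61) with time in control cells. A replicate block gave 31 lower and 5 higher at 12 h, 17 and 3 at 48 h, and 13 upward differences between times in place of 15, and changed no other call among the 43 genes; same-numbered arrays share only a number. The number of arrays limits the precision, and a probe set near 4 is weakly measured.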

Other observations

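Second probe sets gave further values for genes of this group. KPNA4 rose on another probe set at both times (0.86 at 12 h and 0.68 at 48 h), and KPNA6 fell on another probe set at 12 h (-0.80) where its brightest probe set did not pass. XPO4 rose by 0.85 at 48 h on a dim probe set with a mean of 3.75. Over 54 second probe sets of 27 genes, 33 had the sign of the brightest one at 12 h and 44 at 48 h. Both were called for 23 pairs at 12 h, 19 of them in the same direction, and for 13 pairs at 48 h, all 13 in the same direction. The 4 opposite pairs at 12 h were in NUP43, NUP133, NUP160 and NUP98.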
